A study of Mus musculus with 3 samples.

Results

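The stefin A cluster genes Stfa1, Stfa2, Stfa3, Cstdc4, Cstdc5 and Cstdc6 were described in mouse skin cells, by cell cluster and by library. They were taken by symbol from the deposited count tables, where all 6 were found among 31253 listed genes, each in 1 row. The genes were proposed with results of these libraries in view, so their levels are given as a description, with no test. Csta1, Csta2, Csta3 and Stfa2l1, 4 stefin A type neighbours on chromosome 16, are given beside them.

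Both skin libraries came from mice treated with MC903 (calcipotriol, an analogue of vitamin D used on mouse skin to give dermatitis-like inflammation). The control library held skin cells selected with CD45 beads from MC903-treated mice, and the RHS library held such cells from mice that received both RHS and MC903. What RHS stands for is not spelled out; the series title speaks of psychological stress. Each group was 1 library, and strain, sex, age and number of mice were not given in the sources used here. A preparation text also names EtOH-treated mice, but no library carries that label. A library of sympathetic ganglion nuclei, pooled from many mice given RHS and MC903, had no partner group and was used only for a look at the same genes.

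Stefins are small inhibitors that sit in the active site of cysteine proteases such as cathepsins B, L, S and H and block them reversibly. They lack a signal peptide and act inside the cell. Humans carry a single stefin A gene (CSTA), known from the cornified envelope of the epidermis, whereas mice carry a tandem array of stefin A type copies that have been described in neutrophils and in skin. The other stefin, stefin B (Cstb), is expressed in most cell types.

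The copies are close enough in sequence for a short read to fit more than 1 of them. In GENCODE M21 (GRCm38) the genes lie in the order Csta1, Stfa2l1, Cstdc4, Csta3, Csta2, Stfa1, Cstdc6, Cstdc5, Stfa2 and Stfa3 on chromosome 16. In its transcripts the coding identity between members ran from 76% to 98% over 15 pairs, with a median of 80.2%. Stfa1 and Cstdc5 had 98% identity and shared 131 windows of 50 bases, Cstdc5 and Cstdc6 had 95.9% and 92 windows, and Cstdc4 shared 130 windows with Csta2 at 96.9% identity. Stfa2 and Stfa2l1 had 96.5% identity and 62 shared windows. Cstdc5 also shared 10 windows with Csta1. Stfa3 shared no 50-base window with another of the 10 genes listed here, compared by 1 transcript each. Other genes, such as Cstdc3, were not compared. A read from a shared window cannot be given to 1 gene, so the split of counts among Stfa1, Cstdc5 and Cstdc6, between Cstdc5 and Csta1, between Cstdc4 and Csta2, and between Stfa2 and Stfa2l1 is uncertain. An antisense gene, Gm15845, overlaps Cstdc5 in that annotation, and the use of strand in the counting was not given in the sources used here.

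A stretch of 90 coding bases (from GENCODE M21, bases 40 to 129 of the Stfa3 coding sequence) shows these relations for the genes that carry the results. Capitals mark bases that differ from Stfa3 at the aligned place.
Stfa3: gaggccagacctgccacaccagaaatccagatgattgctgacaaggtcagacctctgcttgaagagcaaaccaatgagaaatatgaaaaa
Cstdc5: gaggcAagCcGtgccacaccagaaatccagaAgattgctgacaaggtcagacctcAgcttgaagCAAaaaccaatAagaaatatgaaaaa
Stfa1: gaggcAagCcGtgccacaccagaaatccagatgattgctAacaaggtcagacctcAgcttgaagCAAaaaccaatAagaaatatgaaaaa
Cstdc6: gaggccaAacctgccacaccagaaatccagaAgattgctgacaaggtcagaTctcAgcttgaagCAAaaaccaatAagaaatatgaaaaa
Cstdc4: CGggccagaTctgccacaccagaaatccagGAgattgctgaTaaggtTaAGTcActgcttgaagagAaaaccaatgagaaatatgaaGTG
Csta2: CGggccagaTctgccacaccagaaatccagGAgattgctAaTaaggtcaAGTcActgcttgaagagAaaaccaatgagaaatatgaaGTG
Cstdc5 differed from Stfa3 at 9 of these bases, Stfa1 at 9, Cstdc6 at 8, and Cstdc4 and Csta2 at 15 each. Csta2 differed from Cstdc4 at 2.

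The promoters share strings as well. RefSeq promoters (GRCm38.p6) were matched for 5 members (Cstdc6 had no entry) and for the other 4 genes of the array. A stretch of 120 bases that ends at the start site, or 1 base past it for Cstdc5, is shown for 5 genes. Stfa3 (chr16:36455393-36455512, minus strand), Cstdc5 (chr16:36367570-36367689, minus strand) and Stfa1 (chr16:36277028-36277147, plus strand) were the 3 members with the highest counts in keratinocyte-like cells. Stfa1 was also found in neutrophil-like cells. These 3 are set beside the genes found mainly in neutrophil-like cells, Cstdc4 (chr16:36184092-36184211, plus strand) and Stfa2l1 (chr16:36156691-36156810, plus strand). Capitals mark ACCTTTAAAACCC, 1 of 2 longest strings (13 bases) that all 5 member promoters hold.
Stfa3: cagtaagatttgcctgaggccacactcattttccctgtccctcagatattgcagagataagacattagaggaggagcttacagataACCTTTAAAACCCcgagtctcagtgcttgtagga
Cstdc5: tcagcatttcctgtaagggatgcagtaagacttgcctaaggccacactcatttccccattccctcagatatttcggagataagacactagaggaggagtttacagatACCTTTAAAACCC
Stfa1: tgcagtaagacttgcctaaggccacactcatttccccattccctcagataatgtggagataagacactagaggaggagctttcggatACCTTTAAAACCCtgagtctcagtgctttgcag
Cstdc4: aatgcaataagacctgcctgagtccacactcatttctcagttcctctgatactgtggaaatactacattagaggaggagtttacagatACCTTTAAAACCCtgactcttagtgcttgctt
Stfa2l1: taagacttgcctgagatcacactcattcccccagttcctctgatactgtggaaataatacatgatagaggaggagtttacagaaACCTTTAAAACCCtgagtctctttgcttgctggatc
The strings were found by searching these promoters, so their presence in them is no test. The marked string began 34 bases before the annotated start of Stfa3, 33 before Stfa1, 32 before Cstdc4 and Stfa2, 36 before Stfa2l1 and 12 before Cstdc5. The other string, GATCATTTCTTCT, began at base 1, counted from the start site, in Stfa1, Stfa2 and Cstdc4, 2 bases before the start in Stfa3 and at base 22 in Cstdc5, so the pair keeps nearly the same spacing while the annotated start of Cstdc5 is set further upstream. Both strings were also in Csta3 and Stfa2l1 and not in Csta1 or Csta2. On either strand the marked string was in 9 of 32851 promoters (0.0274%), the remaining ones being Cstdc3 and Gm7260, and the other string was in 10 (0.0304%). Likeness of whole promoters did not follow the cell type: identity to Stfa3 was 75.1% for Cstdc5 and 81% for Stfa2l1. It was 68.5% for Cstdc4 and 81% for Stfa1, which was found in both cell types.

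Other short motifs were searched on both strands of the same promoters. TTNNGNAA, a loose form of the site of CCAAT/enhancer-binding proteins, was in 4 of 5 member promoters (not Stfa3), against 40.7% of all promoters. GAGGAAG, an ETS-type core, was in Stfa1, Cstdc4 and Cstdc5, against 13.6%. CACACCC, read by Kruppel-like factors, was in Stfa2 and Stfa3, against 7.95%. TGANTCA, the activator protein 1 site, was in Stfa3 alone among the 5 members, against 7.81%. That match began at base 30, counted from the start site, past the stretch shown above. TATAAA was in no member promoter, against 13.6%. None of these strings was held by both Stfa3 and Cstdc5. A match is a description of letters, not of a bound site.

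The filters kept 12577 control and 12953 RHS cells with medians of 3233 and 3101 UMIs, and 5 cell barcodes occurred in both libraries. Clustering both libraries together gave 27 clusters, of which 22 could be named from marker genes and are called "like" for that reason. Levels are CPM, a gene's summed counts scaled to 1e6 UMIs of the cluster in that library. Intervals are exact 95% intervals. Those of levels, ratios and shares of counts take each UMI as independent, although member UMIs were clumped in few cells. They cover counting error only and not the spread between cells. No interval covers the spread between libraries, since there was no replicate library. The cell type label of the libraries is immune cell, yet clusters with little Ptprc (the gene of CD45) were present, among them the keratinocyte-like cluster 9 with 6.28 CPM of Ptprc over both libraries, against 797 in the neutrophil-like cluster 20. Whether the bead selection kept epithelial cells alike in both libraries was not tested.

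Over all skin cells the 6 genes gave 3027 control and 1660 RHS counts, or 56.5 CPM (54.5 to 58.6) and 32.2 CPM (30.7 to 33.8). The ratio of RHS over control was 0.570 (0.536 to 0.605), so the summed level was lower in the RHS library. Single genes differed in opposite directions. Stfa3 had 1272 and 540 counts (ratio 0.441, 0.398 to 0.488), and Cstdc5 had 1300 and 577 (0.461, 0.417 to 0.509). Stfa1 had 113 and 69 counts (0.634, 0.463 to 0.863), and Cstdc6 had 35 and 12 (0.356, 0.168 to 0.703). Cstdc4 went the other way, with 290 and 449 counts (1.61, 1.38 to 1.87). Stfa2 was near the limit of detection, with 17 and 13 counts (0.795, 0.355 to 1.74).

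A gene was called different when its CPM differed at least 1.5-fold with at least 50 counts in the higher library. Over all skin cells 4 members had enough counts for this, of which 1 was higher (Cstdc4) and 3 were lower (Stfa3, Cstdc5 and Stfa1) in the RHS library. Of the 13592 genes with enough counts, 2.51% were higher and 14.5% were lower. Stfa2 and Cstdc6 had too few counts. In a whole-library sum, fewer cells of a type and less RNA per cell cannot be told apart.

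**Figure D1:**
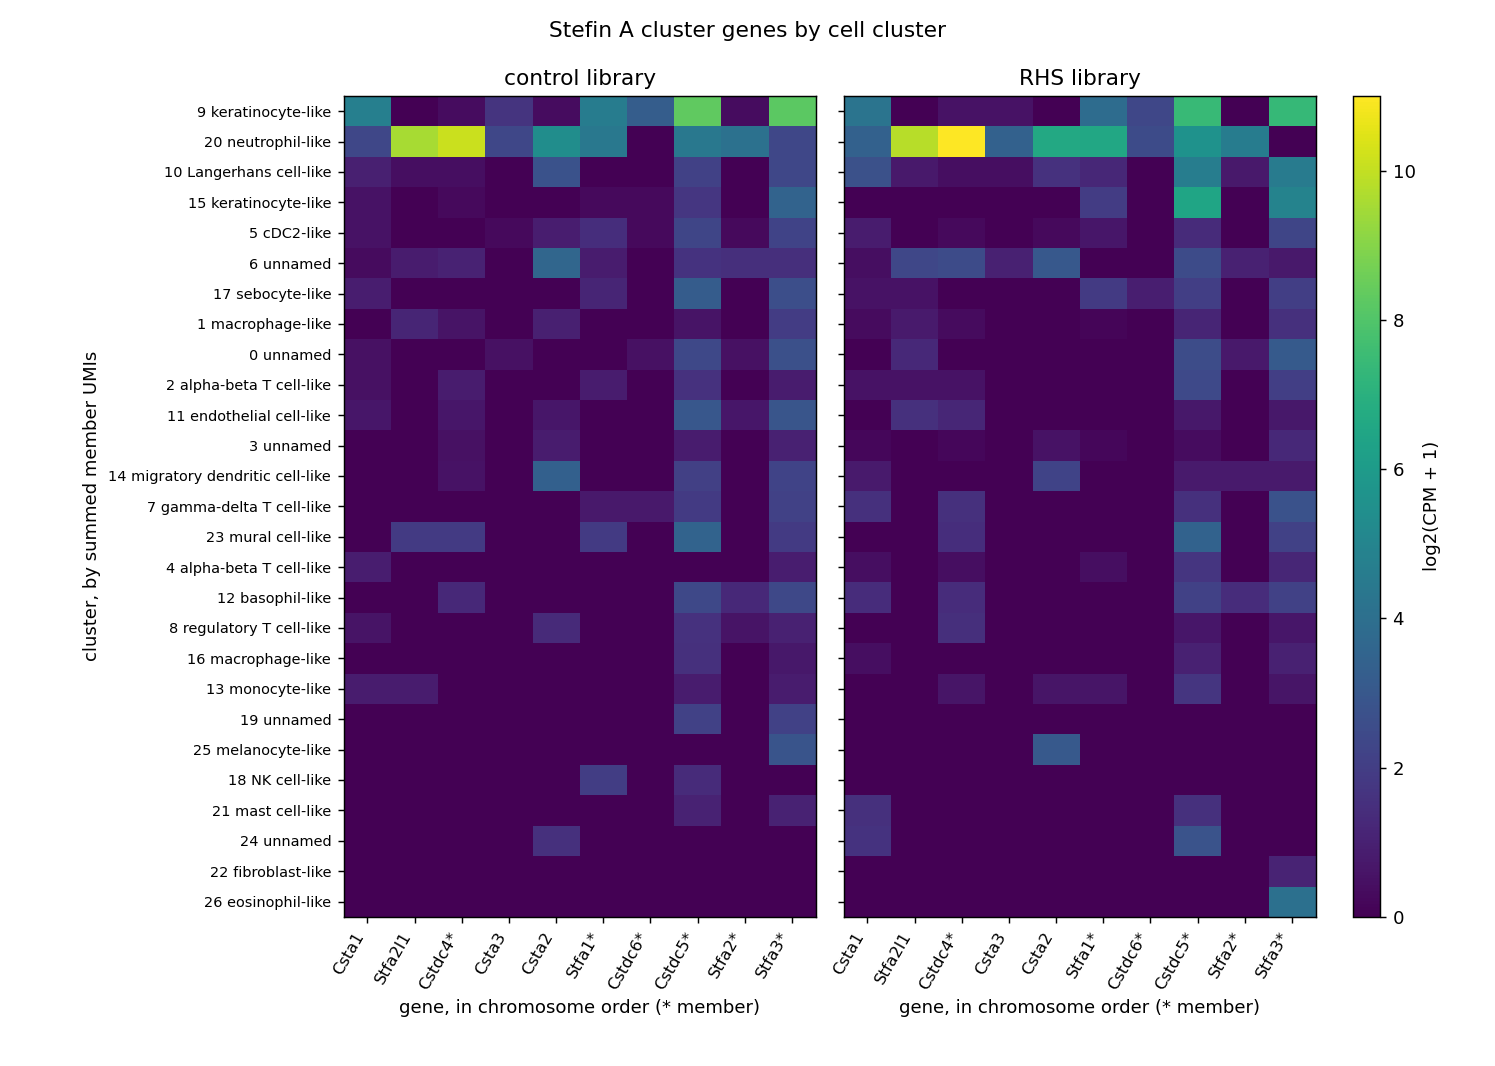
Levels of the 10 stefin A type genes, log2(CPM + 1), in each of 27 clusters (rows, ordered by summed member UMIs) for the control and the RHS library; columns follow the chromosome and asterisks mark the 6 members. Stfa3 and Cstdc5 are brightest in keratinocyte-like cluster 9, and Cstdc4 and Stfa2l1 in neutrophil-like cluster 20, in both libraries.

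Stfa3 and Cstdc5 had most of their counts in a keratinocyte-like cluster, and Cstdc4 and Stfa2l1 in a neutrophil-like one. Cluster 9, keratinocyte-like with Krt6a, Krtdap, Krt1, Krt10 and Krt5 among its leading genes and 20 of 27 keratinocyte markers present, held 86.6% of the Stfa3 counts (84.6 to 88.5%) and 89.5% of the Cstdc5 counts (87.7 to 91.2%) of the control library. In the RHS library it held 68.3% (64.2 to 72.2%) and 65.2% (61.1 to 69.1%). Cluster 20, led by S100a9, S100a8, Csf3r and Retnlg, held 94.1% (90.8 to 96.5%) of the Cstdc4 counts in the control against 93.1% (90.3 to 95.3%) in the RHS library. Stfa3 and Cstdc4 were nearly absent from each other's cluster: in cluster 9 Cstdc4 had 1 count in each library and Stfa2l1 had none, and in cluster 20 Stfa3 had 1 and 0 counts. Stfa2 had its largest control share in the unnamed cluster 6, with 7 of 17 counts, and its largest RHS share in cluster 20, with 5 of 13. By level it was higher in cluster 20, at 16.2 CPM in the control and 23.8 CPM in the RHS library from 4 and 5 counts. In cluster 6 it was at 1.83 and 1.01 CPM. Stfa1 was in both clusters, with 77.0% of its control and 44.9% of its RHS counts in cluster 9 and 4.42% and 29.0% in cluster 20. Its level, which does not depend on the size of a cluster, was 23.7 CPM in cluster 9 and 20.3 CPM in cluster 20 in the control. In the RHS library it was 14.0 and 95.2 CPM. Both Cstdc4 and Stfa2l1 were among the 10 leading genes of cluster 20, so they took part in defining it; with the stefin and cystatin genes left out of the clustering the same 183 control and 168 RHS cells came together.

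In cluster 9 (629 control and 400 RHS cells) the 4 members with 20 or more counts had ratios of RHS over control from 0.481 to 0.591. Stfa3 was at 299.8 CPM (282 to 318) in the control against 166 CPM (150 to 184) under RHS, a ratio of 0.555 (0.492 to 0.625). Cstdc5 was at 317 CPM (299 to 335) and 170 CPM (153 to 188), a ratio of 0.535 (0.475 to 0.602). Both were lower in the RHS library, by close ratios. Stfa1 had 87 and 31 counts (0.591, 0.379 to 0.899), and Cstdc6 had 31 and 9 (0.481, 0.202 to 1.04). The neighbour Csta1, found in the same cells, had 94 and 40 counts (0.705, 0.475 to 1.03). The last 2 intervals include 1, so no difference was detectable for Cstdc6 and Csta1 at this depth. In cluster 9, 3 members had enough counts and all 3 (Stfa3, Cstdc5 and Stfa1) were called lower; of 6306 genes there 5.82% were lower and 1.7% higher. Per kilobase of transcript, the control levels were 728 CPM for Stfa3, 512 for Cstdc5, 38.4 for Stfa1 and 21.8 for Cstdc6. The RHS levels were 404, 274, 22.7 and 10.5, the same order in both libraries. This division puts Stfa3 above Cstdc5, whereas the undivided CPM of Cstdc5 were slightly above those of Stfa3, with overlapping intervals. Whether UMI counts scale with transcript length here was not tested.

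The summed members in cluster 9 were at 649 CPM (623 to 676) in the control and 354 CPM (330 to 380) under RHS, with 2386 and 786 counts and a ratio of 0.546 (0.503 to 0.592). Depth was alike, with medians of 5096 and 4918.5 UMIs per cell. The value depended on where the border of the cluster was drawn. At a coarser resolution cluster 9 was joined by cells with few member counts, mainly from the control library, and the ratio for these 1145 control and 453 RHS cells was 1.07 (0.989 to 1.16). Another keratinocyte-like cluster, 15, had 534 control and 59 RHS cells. The lower level therefore describes cluster 9, and not all keratinocyte-like cells of the libraries.

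Within cluster 9 the counts sat in a minority of cells. A member UMI was found in 213 of 629 control cells (33.9%, 30.2 to 37.7%) and in 96 of 400 RHS cells (24.0%, 19.9 to 28.5%). In lymphoid cells (T cell-like and NK cell-like clusters), which should lack the genes, the shares were 0.951% and 0.819%, at medians of 1774 to 2731.5 UMIs per cell in those control clusters and 1591 to 2207 in the RHS ones. Thinned to 500 UMIs per cell, the shares in cluster 9 were 15.7% and 10.0%, and in lymphoid cells 0.131% and 0.198%. Single cells reached 159 member UMIs in the control against 101 in the RHS library. At least 10 member UMIs were found in 54 control cells (8.59%) and 14 RHS cells (3.50%). The 10 cells with most UMIs held 38.4% of the control counts and 65.1% of the RHS counts. Without the 10 top cells of each library, 1470 and 274 counts remained and the ratio was 0.317 (0.278 to 0.361). These 10 cells are a larger part of the 96 RHS cells with a member UMI than of the 213 control cells. The 2 shares held by the top cells are therefore not like for like, and the removal tends to lower the ratio by itself.

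**Figure D2:**
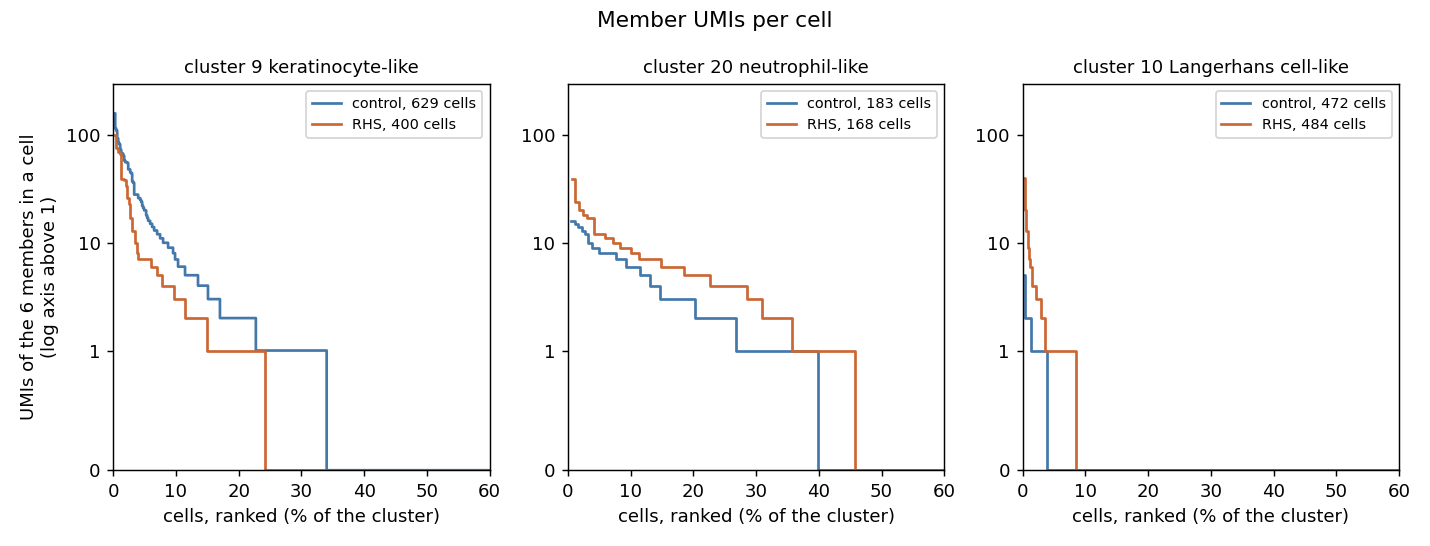
UMIs of the 6 members in a cell (vertical, log axis above 1) against the rank of the cell as a percent of its cluster, for 3 clusters and both libraries. The control curve lies above the RHS curve in keratinocyte-like cluster 9, the RHS curve lies above in neutrophil-like cluster 20, and the RHS curve of Langerhans cell-like cluster 10 falls from 40 UMIs to 0 within 8.26% of the cells.

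Cells with members held more Krt1, Krt10, Krtdap, Krt5 and Krt6a than cells without, in genes looked at after seeing the data. Krt6a, a keratin of activated epidermis, was at 3073 CPM in the 142 control cells with at least 2 member UMIs and at 381 CPM in the 416 control cells with none. Krt1, a keratin of the layers above the basal one, was at 1382 and 15.7 CPM in the same cells, and Krtdap, a gene of differentiating keratinocytes, at 1521 and 148 CPM. In the RHS library the values for 59 cells with at least 2 member UMIs and 304 with none were 1874 and 815 CPM for Krt6a, 2160 and 24.5 CPM for Krt1 and 2059 and 213 CPM for Krtdap. The 304 cells include all 10 cells of a sub-cluster found only in the RHS library, which had no member UMI and 14218 CPM of Krt6a. Krt10 was at 963 and 29.9 CPM in the control cells with and without members and at 3582 and 88.0 CPM in the RHS ones. Of the basal keratins, Krt5 was at 2435 and 977 CPM in the control cells and 2972 and 972 CPM in the RHS cells, and Krt14 at 4662 and 2909 CPM and at 4515 and 2910 CPM. Krt16, another keratin of activated epidermis, was at 1543 and 678 CPM in the control cells and 752 and 658 CPM in the RHS cells, and Krt17 at 1197 and 1064 CPM and at 808 and 888 CPM, so that Krt17 was lower in the RHS cells with members. Sprr1a, a cornified envelope precursor, was lower in cells with members, at 2157 and 3596 CPM in the control cells and 2704 and 4178 CPM in the RHS cells. Ivl, which codes for involucrin of the cornified envelope, was lower there too, at 6.74 and 48.4 CPM in the control against 48.7 and 85.4 CPM in the RHS library. Cells with members were also deeper (medians of 6456 and 4780.5 UMIs in the control, 7666 and 4826 under RHS).

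Sub-clusters of cluster 9, made after seeing the data and without any stefin or cystatin gene, differed widely in member level. Sub-cluster 9.3, with Krt10, Krt1, Calm4, Casp14 and Flg among its leading genes, had the highest level, 2753 CPM (2545 to 2972) in 51 control cells and 1705 CPM (1528 to 1897) in 34 RHS cells. Sub-cluster 9.1, with Procr, Ly6a and Krt6a and also the Langerhans cell gene Cd207 among its leading genes, was at 1037 CPM (984 to 1091) in 252 cells and 484 CPM (429 to 545) in 123 cells. Sub-cluster 9.0, with Plin2, Cxcl1, Lcn2 and Scd1, was at 69.5 CPM (57.6 to 83.1) in 273 cells and 37.0 CPM (26.8 to 49.8) in 174 cells. These 3 were lower in the RHS library, with ratios of 0.619 (0.542 to 0.707), 0.467 (0.409 to 0.532) and 0.532 (0.367 to 0.760). Sub-cluster 9.2, with Fos, Ccn2 and Atf3, was not, at 468 CPM in 53 control cells and 527 CPM in 59 RHS cells (1.13, 0.876 to 1.45). The level was lower in 3 of the 4 sub-clusters that both libraries fill. The keratins inside these sub-clusters also differed between the libraries. In the control and RHS cells of 9.1 Krt1 was at 374 and 49.1 CPM. In 9.3 Krt10 was at 4167 and 9458 CPM and Krt6a at 3555 and 1362 CPM. Krt1 was at 21.3 and 167 CPM in 9.2 and at 1.74 and 2.58 CPM in 9.0. The part of cell make-up in the lower level was not tested. Sub-cluster 9.3 was 8.11% of the control and 8.50% of the RHS cells of cluster 9, and 9.1 was 40.1% and 30.8%. A further group of 10 cells, all from the RHS library and with Lyz1 and Ptgs2 among its leading genes, had no member UMI.

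**Figure D3:**
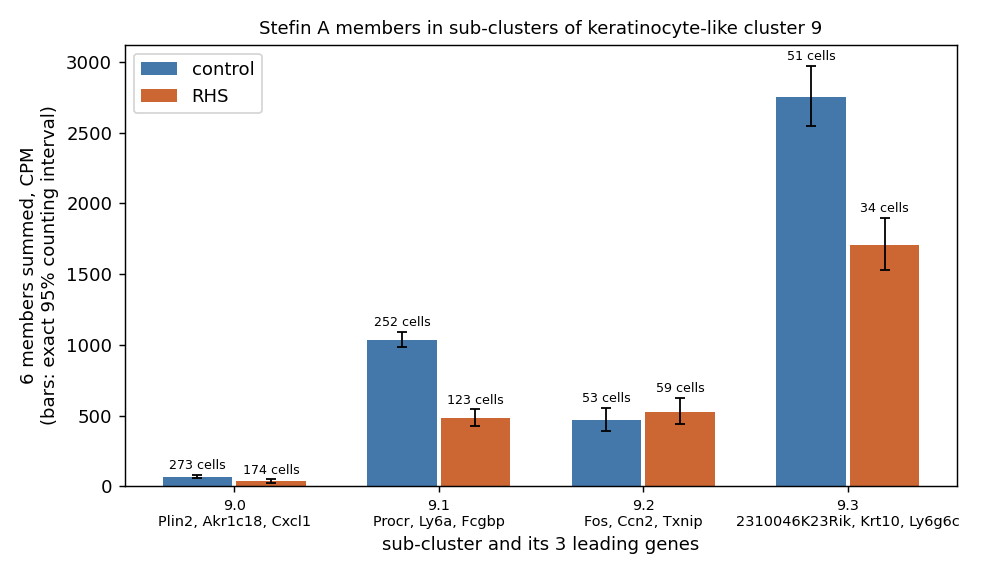
Summed CPM of the 6 members (bars, with exact 95% counting intervals) in the 4 sub-clusters of keratinocyte-like cluster 9 that both libraries fill, with cell numbers above the bars. Sub-cluster 9.3, with Krt10 among its leading genes, is highest in both libraries, and the RHS bar is lower in 9.0, 9.1 and 9.3 but not in 9.2.

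Stfa3 and Cstdc5 were found together in many cells of cluster 9 but not in a fixed proportion. In the control library 146 cells held Stfa3, 149 held Cstdc5 and 91 held both; in the RHS library the numbers were 50, 75 and 35. Across cells the rank correlation (Spearman) of their UMIs was 0.577 over 629 control cells and 0.542 over 400 RHS cells, as a description, since the cells differ in depth. Pooled over the cluster, Stfa3 was 48.6% of the UMIs of the pair in the control against 49.5% in the RHS library. In the 32 control cells with at least 20 UMIs of the pair its share ran from 0% to 93.8%, and in 14 of them the exact interval left out the pooled share. In the 10 such RHS cells it ran from 28.1% to 67.6%, with 2 outside. Of the 6 members, 3 were found in 28 control and 7 RHS cells of the cluster, 4 in 9 and 1, and no cell held more than 4.

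**Figure D4:**
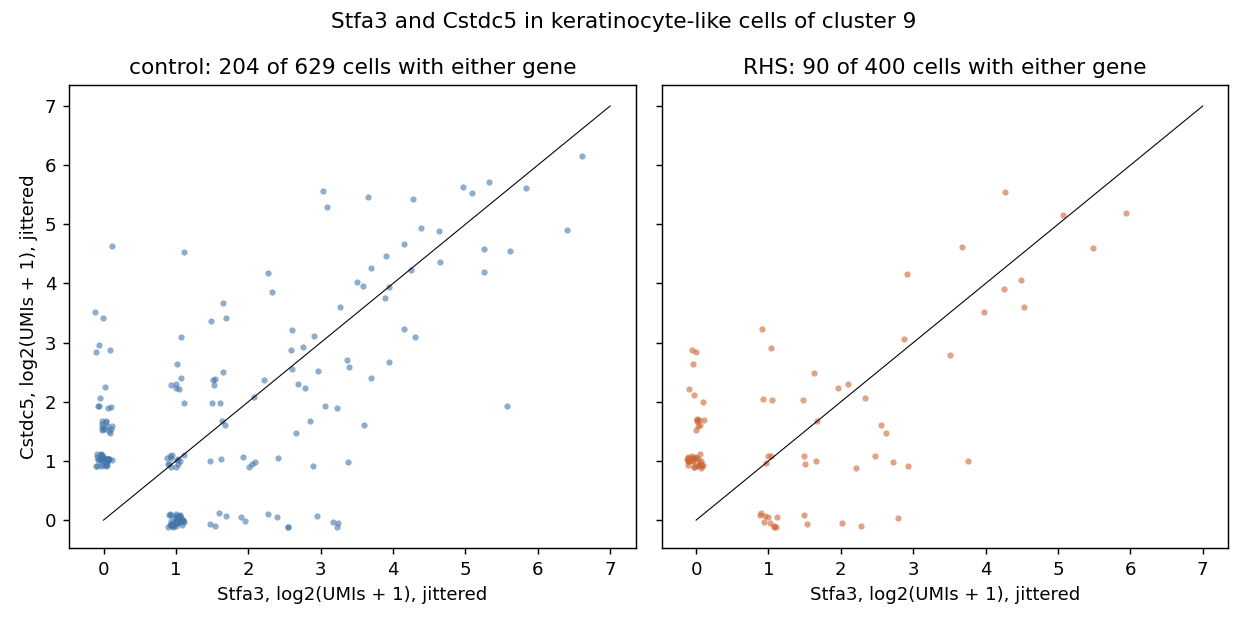
Cstdc5 against Stfa3, each as log2(UMIs + 1) with a small jitter, for every cell of keratinocyte-like cluster 9 with at least 1 UMI of either gene; the line marks equal UMIs. Cells with many UMIs of both genes lie on both sides of the line, and cells with only 1 of the genes lie along the axes.

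In the neutrophil-like cluster 20 (183 control and 168 RHS cells) Cstdc4 was higher in the RHS library. It was at 1106 CPM (978 to 1245) with 273 counts in the control and at 1990 CPM (1804 to 2190) with 418 counts under RHS, a ratio of 1.80 (1.54 to 2.10). Stfa2l1, its neighbour in the array with nearly the same distribution over clusters, was at 745 CPM (641 to 861) and 890 CPM (767 to 1027), a ratio of 1.19 (0.970 to 1.47) that includes 1. Csta2, which shares sequence with Cstdc4, had 10 and 21 counts (2.47, 1.11 to 5.87). Cstdc4 was the only member with enough counts in cluster 20 and was called higher, as were 8.34% of the 815 genes with enough counts there, while 13% were lower. Per kilobase of transcript Cstdc4 was at 2671 CPM and Stfa2l1 at 1778 CPM in the control library, and at 4807 and 2125 CPM in the RHS library.

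Stfa1 had 5 counts in 3 control cells and 20 counts in 7 RHS cells of cluster 20 (4.70, 1.71 to 16.0), and each of these cells also held Cstdc4. Cstdc5 had 5 and 10 counts, Stfa2 4 and 5, and Cstdc6 0 and 1. Summed, the members were at 1166 CPM (1035 to 1309) in the control and 2162 CPM (1967 to 2370) under RHS, a ratio of 1.85 (1.60 to 2.16). Cells with a member UMI were 72 of 183 (39.3%, 32.2 to 46.8%) and 76 of 168 (45.2%, 37.6 to 53.1%), at medians of 1275 and 1177.5 UMIs per cell. Thinned to 500 UMIs the shares were 27.3% (21.01 to 34.4%) and 38.7% (31.3 to 46.5%). The intervals of the shares overlap. At least 10 member UMIs were held by 6 control cells and 13 RHS cells. Without the 10 top cells of each library 174 and 272 counts remained (1.83, 1.51 to 2.23).

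Most listed neutrophil genes were closer to a ratio of 1. In cluster 20 S100a8 was at 20549 and 20087 CPM (0.978, 0.938 to 1.02) and S100a9 at 15041 and 16493 CPM (1.10, 1.05 to 1.15). Retnlg, a resistin-like gene of neutrophils, was lower in the RHS library, at 5467 and 3937 CPM (0.720, 0.660 to 0.786). Of the 28 listed neutrophil genes 24 had enough counts in cluster 20, and 1 was higher (Il1r2, a decoy receptor for interleukin 1, 1.65, 1.45 to 1.88) and 2 were lower (Slpi, a secreted serine protease inhibitor, 0.658, 0.599 to 0.723, and Asprv1, 0.659, 0.527 to 0.822). Their median log2 ratio was 0.05, against -0.07 for all genes with enough counts, of which 8.34% were higher and 13% were lower. Stfa2l1 is itself on that list. The chemokine gene Cxcl2 had the highest level, 29111 and 35628 CPM (1.22, 1.18 to 1.26). Among listed genes with 20 or more counts in a library, Ltf (lactoferrin) had the highest ratio, from 9 and 24 counts (3.13, 1.41 to 7.66), and Ly6g the lowest, from 25 and 10 (0.470, 0.202 to 1.01). Ngp, a granule gene of immature neutrophils, had 185 and 167 counts (1.06, 0.856 to 1.32), which sat in 4 cells of each library, none of which had 2 or more member UMIs.

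**Figure D5:**
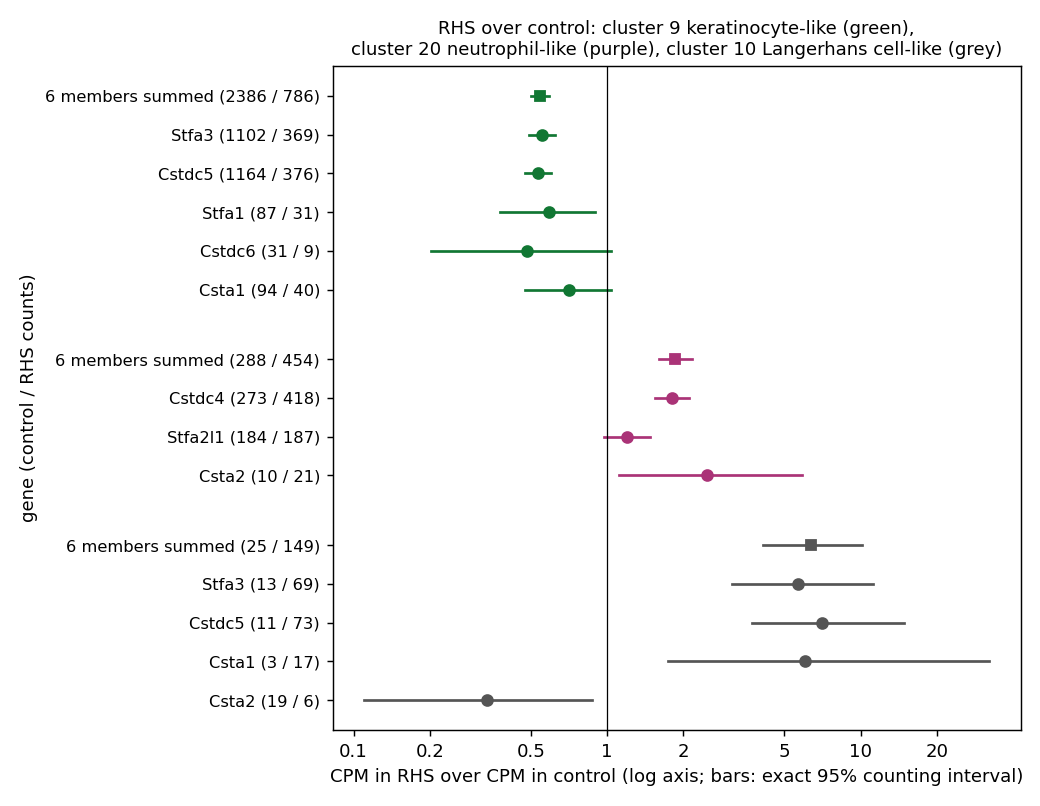
Ratio of RHS over control CPM (log axis) with exact 95% counting intervals for the summed members (squares) and single genes (circles) in 3 clusters, with control and RHS counts beside each name. The keratinocyte-like ratios lie below 1, the Cstdc4 and summed neutrophil-like ratios lie above 1, and in Langerhans cell-like cluster 10 Stfa3 and Cstdc5 lie above 1 while Csta2 lies below.

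In the Langerhans cell-like cluster 10 (472 control and 484 RHS cells, led by Cd207, the gene of langerin) the same pair as in keratinocyte-like cells was higher in the RHS library. Stfa3 had 13 and 69 counts (5.65, 3.10 to 11.1), and Cstdc5 had 11 and 73 (7.07, 3.73 to 14.8). Both members with enough counts were called higher, against 2.38% of 5955 genes higher and 5.31% lower. Summed, the members were at 7.76 CPM (5.02 to 11.4) and 49.2 CPM (41.6 to 57.8), a ratio of 6.35 (4.14 to 10.1), and Csta1 had 3 and 17 counts. The lymphoid clusters, which should lack the genes, were at 4.18 and 5.05 CPM, inside or just outside the interval of the control level.

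Few cells carried this difference. In the RHS library 40 of 484 cells held a member UMI and 16 held at least 2; single cells held 40, 20 and 13, and the 10 top cells held 110 of the 149 counts. Without the 10 top cells of each library 7 and 39 counts remained (5.94, 2.62 to 15.7). Cd207 was found in 6 of the 16 RHS cells with at least 2 member UMIs, against 69.8% of the RHS cells with none. Krt1 was at 137 CPM in those 16 cells and at 1.81 CPM in cells with no member UMI, and Krt10 was at 146 and 2.89 CPM. Over the whole cluster keratin counts were not higher in the RHS library, with 43 and 22 for Krt1 and 45 and 23 for Krt10. Of these Krt1 counts, 14 of 22 in the RHS library were in the 16 cells with at least 2 member UMIs. In the control library 40 of 43 were in cells with no member UMI. Of the cornified envelope genes, Sprr2a3 had 3 and 15 counts (5.32, 1.51 to 28.7), and Sprr1a had 27 and 22. Whether keratinocyte RNA had a part in the difference was not tested. With cells of 2 or more UMIs of Krt1, Krt10, Krt14 and Krt5 together left out, 19 and 83 member counts gave a ratio of 4.57 (2.75 to 7.98). The ratio also depended on the clustering: it was 4.62 at a finer resolution, and 2.75 (2.03 to 3.77) for the 567 control and 584 RHS cells grouped when stefin and cystatin genes were left out. Csta2 was lower in cluster 10, with 19 and 6 counts (0.336, 0.110 to 0.876).

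The remaining clusters held few member counts. In keratinocyte-like cluster 15 a single control cell held 48 of 58 counts, and 3 RHS cells held all 41, so its ratio of 8.91 (5.82 to 13.5) rests on 4 cells; without the 10 top cells 1 and 0 counts remained. The sebocyte-like cluster 17 had 36 and 22 counts (0.670, 0.375 to 1.17). In the unnamed cluster 6, led by Cd209a, Cd209d and Mgl2, 1 RHS cell held 16 of 33 member counts. The cDC2-like cluster 5 had 45 and 32 counts (0.651, 0.401 to 1.05), and the endothelial cell-like cluster 11 had 25 and 4 (0.175, 0.0444 to 0.508), with 12 of the 25 in 1 cell. Over the 21 clusters other than 6, 9, 10, 15, 17 and 20 the level ran from 0 to 18.2 CPM in the control, with a median of 4.36, and from 0 to 15.6 CPM in the RHS library, with a median of 3.48. The neighbour Csta2 had its largest control share in cluster 6 (43 of 110 control and 21 of 59 RHS counts), and in the migratory dendritic cell-like cluster 14 it had 20 and 5.

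Genes of the proteases that stefins and other cystatins inhibit were compared as a list. Over all skin cells 11 of 12 cysteine cathepsin and legumain genes had enough counts, and 5 were higher and none was lower in the RHS library. Their median log2 ratio was 0.57 against -0.10 for all genes, of which 2.51% were higher and 14.5% were lower. Ctsk was highest by ratio, at 61.1 and 136 CPM (2.23, 2.14 to 2.32), and Ctsb, Lgmn, Ctsl and Ctss lay between 1.52 and 1.62. The macrophage-like cluster 1 held 758 control and 1609 RHS cells; its part in the difference was not tested. Within cluster 9, where Stfa3 and Cstdc5 were lower, 8 of the genes had enough counts and none was higher. The 1 lower gene was Ctsf (61 and 12 counts, 0.326, 0.160 to 0.612), against 1.7% of all genes higher and 5.82% lower. There Ctsb was at 429 and 472 CPM (1.10, 1.02 to 1.19), Ctsc at 115 and 115 CPM and Ctsl at 108 and 146 CPM (1.35, 1.16 to 1.57), and Ctsz had a ratio of 0.716 (0.505 to 1.00). In cluster 20, with higher Cstdc4, 3 had enough counts. Ctss was higher (58 and 77 counts, 1.56, 1.10 to 2.23), and Ctsz was lower (62 and 31, 0.588, 0.369 to 0.919). Ctsb was at 1256 and 1290 CPM (1.03, 0.870 to 1.21). Of all genes with enough counts in cluster 20, 8.34% were higher and 13% were lower. The aspartic protease gene Ctsd, which stefins do not inhibit, was lower in both clusters. It was at 46.0 and 14.0 CPM in cluster 9 (0.304, 0.2003 to 0.448) and at 271 and 80.9 CPM in cluster 20 (0.298, 0.164 to 0.514). Ctsd was also lower in cluster 10 (108 and 40 counts, 0.394, 0.267 to 0.572) and over all skin cells (0.565, 0.5375 to 0.594). In cluster 10, none of the 8 cysteine protease genes with enough counts passed 1.5-fold.

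Stefin B (Cstb) was at 1260 and 1441 CPM in cluster 9 (1.14, 1.09 to 1.20) and at 1596 and 1809 CPM in cluster 20 (1.13, 0.982 to 1.31), and Cst3, the secreted cystatin C, at 756 and 813 CPM (1.07, 1.01 to 1.14) and 757 and 876 CPM (1.16, 0.939 to 1.43). Cst6, a cystatin of epidermis and hair follicle, had 72 and 33 counts in cluster 9 (0.760, 0.487 to 1.16). None of the 4 listed stefin and cystatin genes with enough counts in cluster 9 (Csta1 among them), and none of the 3 in cluster 20, passed 1.5-fold. The ratio of Csta1 there was 0.705 (0.475 to 1.03). Cornified envelope genes, used late in epidermal differentiation, were mixed in cluster 9. Of 6 with enough counts there 3 were higher and none was lower in the RHS library. Of all genes with enough counts in cluster 9, 1.7% were higher and 5.82% were lower. The median log2 ratio of the 6 was 0.79 against 0.00 for all genes. The 3 higher ones were Flg (14 and 77 counts, 9.12, 5.12 to 17.5), Ivl (117 and 172, 2.44, 1.92 to 3.11) and Sprr1b (328 and 468, 2.36, 2.05 to 2.73). Sprr1a was at 3221 and 4090 CPM (1.27, 1.24 to 1.31), and Sprr2d, with 24 and 1 counts, was the lowest by ratio (0.0691, 0.00168 to 0.424). Sprr2a3 (0.904, 0.559 to 1.44), Tgm1 (0.691, 0.295 to 1.498) and Tgm3 (17 and 1 counts, 0.0975, 0.00233 to 0.622) were also below 1. Casp14 was above 1 (140 and 103 counts, 1.22, 0.936 to 1.58). Genes with low counts also went up, namely Cnfn (1 and 12 counts, 19.9, 2.94 to 850), Lor (0 and 11 counts) and Hrnr (0 and 10 counts). Of the listed neutrophil genes 8 had enough counts in cluster 9, none was higher and 2 were lower, Slpi (1140 and 235 counts, 0.342, 0.296 to 0.394) and Il1r2 (90 and 30, 0.552, 0.353 to 0.844). S100a8 and S100a9, the defining neutrophil genes, were near 0 there, with 11 and 6 counts and 3 and 1.

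Likeness to the members was measured as Pearson's r of log2(CPM + 10) over the 54 profiles of 27 clusters in 2 libraries, as a description, since profiles share libraries and most clusters lie near 0. Outside the stefin and cystatin families the 8 genes most like the summed members were Chil1 (0.926), Asprv1 (0.896), Il23a (0.778), Il1f9 (0.750), Tbc1d2 (0.744), Lcn2 (0.737), Ngp (0.735) and Scnn1a (0.729), a mixture of genes found in cluster 9, cluster 20 or both. Taken singly after seeing the data, Stfa3 was most like Krt1 (0.923), Krtdap (0.9104) and Defb1 (0.909), and Cstdc4 was most like Ngp (0.996), S100a9 (0.967) and Gm19951 (0.958). Likeness over clusters is not likeness over cells, since Ngp was at 0 in the cells of cluster 20 with 2 or more member UMIs. Over the same profiles r was -0.07 between Stfa3 and Cstdc4, 0.859 between Stfa3 and Cstdc5, 0.997 between Cstdc4 and Stfa2l1, and 0.983 between Cstdc4 and Stfa2, the last from 30 Stfa2 counts in all.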

How the data were processed

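Skin cells were captured with BD Rhapsody, per the labels. The deposited skin matrices are raw UMI counts, as their whole numbers and unequal totals show (55200784 in the control against 52762576 in the RHS library, at least 500 per barcode). For skin, which program counted them was not given in the sources used here; strand use neither. The build and tools listed, without roles, in the submitters' processing notes are GRCm39, Seurat 5.1.0, R 3.6.0 and Cell Ranger.

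Barcodes with under 200 genes or over 20% mitochondrial UMIs were dropped, and Scrublet (expected 6%) removed 146 (1.15%) and 115 (0.880%) doublets, so others remain. Counts scaled to 10000 per cell and log-transformed gave 2000 variable genes, 30 components, 15 neighbours and Leiden clusters at resolution 1.0 (scanpy 1.11.5, leidenalg 0.10.2), without integration. Clusters were named from marker lists by a rule set after seeing the data: the best-scoring list needed at least 3 markers, each in 5% of the cells and above 2 times the mean of the other clusters, and no fewer of the 10 leading genes than other lists. A difference from other work may come from these rebuilt names.

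Counts were summed per cluster and library. CPM have exact Poisson intervals, ratios exact conditional binomial intervals and shares Clopper-Pearson intervals, at 95%. With 1 library a group, nothing was tested between groups. Sequences come from RefSeq (GRCm38.p6) and GENCODE M21, aligned with biopython 1.88; the counts name another build, so these serve for sequence and gene order only. Members and lists were chosen with earlier results of these data known. Named genes were the members, from the lists those with the 3 highest CPM or the 2 highest or lowest ratios (at least 20 counts in a library) in clusters 9 and 20, of which the text gives the ones called or set beside a member, and the 8 genes (at least 200 counts) most like the summed members. Keratins, Cd207, cluster-leading genes and the cornified envelope genes with under 20 counts were chosen after their values were seen.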

Additional observations from a re-analysis of the deposited data

Results flagged for a closer look

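The summed stefin A members went in opposite directions in different clusters under the same contrast. RHS over control was 0.546 in keratinocyte-like cluster 9, 1.85 in neutrophil-like cluster 20 and 6.35 in Langerhans cell-like cluster 10. The sums were not carried by the same genes. Stfa3 and Cstdc5 gave most counts in clusters 9 and 10. In cluster 20 Cstdc4 gave 273 of 288 control and 418 of 454 RHS counts, against 1 count in each library in cluster 9. In cluster 10 the 10 top RHS cells held 110 of 149 counts, and the ratio was 2.40 to 2.89 under 4 of 9 alternatives. With 1 library per group the difference between clusters was not tested.

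The ganglia library, which enters no comparison, held 48 member UMIs in 35 of 4706 nuclei, or 4.32 CPM, close to the lymphoid level of the skin libraries. Cstdc4 and Cstdc5 had 18 each, Stfa2 8, Stfa3 3, Cstdc6 1 and Stfa1 0. Csta1 stood apart, with 169 UMIs in 27 nuclei, and Stfa2l1 had 19 in 15.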

How the results depend on the processing

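Values below are RHS over control unless a share is named. Of 51 alternative values for 12 results, 33 stayed inside the interval of the reported value, 17 lay outside it and 1 turned the direction. The interval of that 1 value includes 1 (0.989 to 1.16). The tally does not count separate checks, since some alternatives use the same cells. Thinning, or asking for at least 2 member UMIs, can only lower a share of cells. The neutrophil-like ratio stayed inside under all 8 of its alternatives (1.67 to 1.88). Resolutions 0.5 and 2.0 and clustering without stefin and cystatin genes returned the same 183 control and 168 RHS cells. The ratio and the shares of member UMIs of cluster 20 therefore repeat the reported values there and are no separate checks. For cluster 9, Leiden resolution 0.5 gave 1.07, a merger with cells that hold few member UMIs. The mean over cells gave 0.490, and without the 10 or the 3 cells with most member UMIs the ratio was 0.317 and 0.453. Such a removal takes a larger part of the RHS cells of cluster 9, which are fewer, and tends to lower the ratio by itself. For cluster 10 the ratio was 2.40 at resolution 0.5, 2.83 with doublets kept, 2.89 with at least 500 genes and 2.75 when clustered without stefin and cystatin genes, each over more cells. Over all cells, at least 500 genes gave 0.523. Thinned to 500 UMIs, the shares of cells with a member UMI were 15.7% and 10.0% in cluster 9 and 27.3% in the control cells of cluster 20. At least 2 member UMIs were held by 22.6% and 14.8% in cluster 9 and by 26.2% and 35.1% in cluster 20. At resolution 0.5 cluster 9 held 80.3% and 49.8% of member UMIs. The alternatives without the 3 top cells, without keratin-bearing cells, by sub-cluster and by single-gene likeness were chosen after seeing the data. No paired analysis was possible because each group is 1 library. Stfa2 and Cstdc6 stayed under 50 counts in each library and are limited by depth.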
